A study of Homo sapiens with 4 samples.

Results

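The interferon-induced antiviral genes analysed here are 50 genes chosen by name among the 48162 genes of the deposited table, and every one of them was listed there. They were measured by RNA-seq in MDA-MB-231, a mesenchymal line derived from human breast cancer, which was grown in DMEM with FBS and treated for 24 h with MGH-CP1, an inhibitor that blocks palmitoylation of the TEAD transcription factors, or with vehicle control (columns named DMSO). The sample labels give the MGH-CP1 dose as 10 µM, each condition has 2 libraries, and the labels name no interferon treatment. All 4 libraries come from this single unmodified line, and the labels do not say whether the 2 libraries of a condition were separate cultures, so p-values measure only the spread between these libraries.

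Levels are in FPKM (fragments scaled to gene length and library total), which can be compared between genes. Fragments counted on genes, recovered from FPKM and gene length, numbered 25455533 and 25508824 with vehicle and 17997221 and 17577930 with MGH-CP1. Transcripts of the TEAD targets CTGF, CYR61 and ANKRD1, used to check the treatment label, fell by 0.66, 0.75 and 0.66 on the log2 scale. All 3 markers listed as high in this line were abundant with vehicle (AXL 283, VIM 274 and CD44 202 FPKM), and AXL was lower after MGH-CP1 (log2 fold change -0.76, limma adjusted p = 0.000425). Of 5 genes listed as low, ESR1, PGR and CDH1 were under 1 FPKM in every library, and ERBB2 and EPCAM were present at 24.8 and 13.1 FPKM with vehicle. Of 5 leukocyte markers, CD3E and LILRA4 had 0 fragments in all 4 libraries (the limit for a count of 0 is 3 fragments), PTPRC and MS4A1 had at most 3 fragments per library, and CD14 was higher after MGH-CP1 (log2 fold change 0.59, limma adjusted p = 0.00715). The summed level of these 5 markers was 1.8 to 2.49 FPKM in the vehicle control libraries and 3.32 to 4.10 in the MGH-CP1 libraries, nearly all of it CD14, and its part in the results was not tested.

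Interferons are secreted proteins that signal through cell surface receptors and JAK kinases. Type I and type III interferons assemble a complex that contains STAT2 and IRF9 and binds interferon-stimulated response elements (ISRE) in promoters, while type II interferon acts mainly at gamma-activated sites (GAS). The induced proteins sense viral nucleic acids, degrade or sequester viral RNA, block virus entry and release, and feed back on the pathway, and many of these genes also have a basal level in cells that have met no interferon.

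Because the genes share this kind of control, promoter sequences are shown for genes at both ends of the response and for the most abundant ones. The RefSeq promoter table (build GRCh38.p14) holds windows of 300 bases, from 250 before the start site to 50 from it, for 38 of the 50 genes (DDX58 under its symbol RIGI). Each stretch printed here has 145 bases before the start site and 10 from it, 5′ to 3′ on the gene's strand, and capitals mark the ISRE core, spelled as GAAA, any pair of bases and GAAA again, searched on both strands. Genes with a mean of at least 1 FPKM were ranked by the log2 fold change of FPKM + 1, which understates the change of low genes. On this scale IFI35 had the largest rise, and EIF2AK2 and OAS3 had the lowest values. IFITM3 and BST2 had the highest levels. GBP2, next after IFI35 on this scale, had no entry. By the ratio of group means, OAS1 (4.40) and GBP2 (2.41) rose more than IFI35 (2.39). OAS1 was added after its values were seen, as a neighbour of OAS3 in the same gene cluster.
IFI35, chr17:43006639-43006793, plus strand: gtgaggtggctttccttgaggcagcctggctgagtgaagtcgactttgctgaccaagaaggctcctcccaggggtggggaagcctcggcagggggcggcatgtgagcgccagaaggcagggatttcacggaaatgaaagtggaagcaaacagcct
OAS1, chr12:112906817-112906971, plus strand: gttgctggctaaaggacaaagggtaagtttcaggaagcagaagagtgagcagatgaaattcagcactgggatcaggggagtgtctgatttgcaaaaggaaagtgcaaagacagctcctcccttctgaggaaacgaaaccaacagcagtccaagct
EIF2AK2, chr2:37156971-37157125, minus strand: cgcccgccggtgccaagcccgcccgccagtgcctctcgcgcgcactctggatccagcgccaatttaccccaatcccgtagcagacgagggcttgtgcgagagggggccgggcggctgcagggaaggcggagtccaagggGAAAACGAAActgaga
OAS3, chr12:112938329-112938483, plus strand: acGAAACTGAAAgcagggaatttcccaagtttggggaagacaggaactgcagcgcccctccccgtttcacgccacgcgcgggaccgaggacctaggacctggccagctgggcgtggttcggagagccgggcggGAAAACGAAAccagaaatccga
IFITM3, chr11:320851-321005, minus strand: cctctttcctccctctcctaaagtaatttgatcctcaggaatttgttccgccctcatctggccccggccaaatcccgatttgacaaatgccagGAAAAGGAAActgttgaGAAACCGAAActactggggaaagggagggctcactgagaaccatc
BST2, chr19:17405621-17405775, minus strand: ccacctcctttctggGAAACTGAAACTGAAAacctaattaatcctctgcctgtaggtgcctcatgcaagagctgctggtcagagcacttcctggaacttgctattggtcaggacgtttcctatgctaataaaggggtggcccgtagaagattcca
The printed stretches of EIF2AK2 and OAS3, neither of which was higher after MGH-CP1, hold ISRE cores beside the start site, as do those of IFITM3 and BST2 upstream of it. Neither IFI35 nor OAS1 has these exact letters in the printed stretch, which says nothing of whether a factor binds there. Both hold GAAA, a single base and GAAA again (gaaatgaaa in IFI35, gaaacgaaa in OAS1), a spacing that was not searched.

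After MGH-CP1 treatment, interferon-induced genes were mostly higher. Of the 50 genes, 47 reached a mean of 1 FPKM and entered the test (limma on log2(FPKM + 1), Benjamini-Hochberg over all 12080 genes tested, threshold 0.05). Of these, 36 rose (76.6%, against 27.1% of all genes tested), 1 fell (2.13%, against 23.8%), and 10 did not pass the threshold. Their median log2 fold change was 0.37, with an SD of 0.017 over the 4 treated-to-vehicle library pairs, which share libraries. The median of all genes tested was 0.01 and their lower and upper quartiles were -0.19 and 0.25. Single genes ran from -0.20 (EIF2AK2) to 1.22 (IFI35), and 14 of the 47 were called and reached 0.5 on the log2 scale, against 10.4% of all genes tested. The groups did not overlap for 39 genes that were higher (against 39.8% of all genes tested) and 5 that were lower (against 37.4%). OAS1 passed the filter on low values through its MGH-CP1 libraries alone, and without it 35 of 46 genes rose, with a median of 0.36. The number called higher was 22 with no filter on low values, where 2280 of all 24878 genes were called higher. It was 0 with limma's per-gene variance alone, where 9 of all 12080 genes were called higher. Genes were grouped by role, and the group medians, which were not tested against each other, ran from 0.90 for the IFI genes to -0.04 for the ISG15 system.

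**Figure D1:**
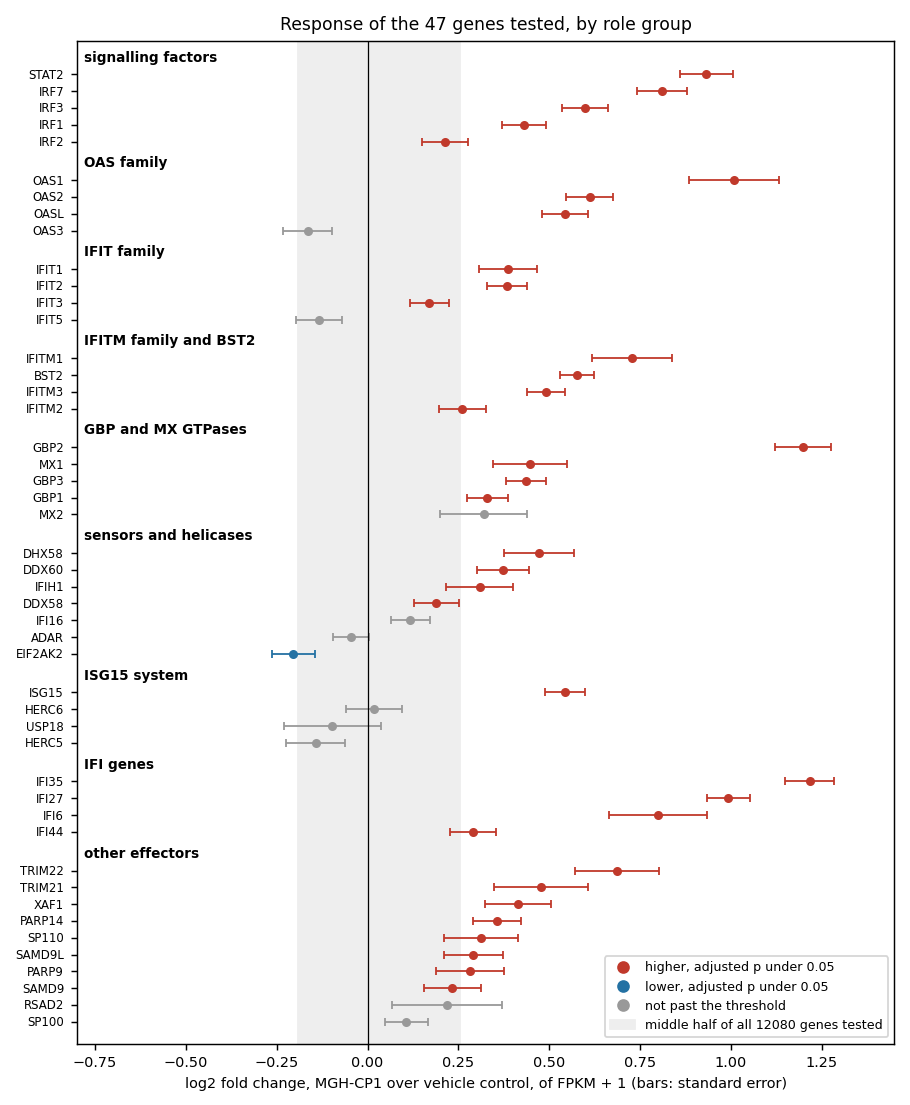
Log2 fold change (MGH-CP1 over vehicle control, of FPKM + 1) with its standard error for the 47 genes tested, by role group, 2 libraries per condition; red, rose; blue, fell; grey, not past the threshold, and the grey band runs from the lower to the upper quartile of all 12080 genes tested. IFI35, GBP2, OAS1 and IFI27 lie at the right between 0.99 and 1.22, and EIF2AK2 is the single gene that fell.

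Taken as a share of the libraries, the 50 genes held 0.267% and 0.262% of fragments with vehicle and 0.338% and 0.328% with MGH-CP1. Their summed level was 1055 and 1066 FPKM with vehicle and 1482 and 1422 FPKM with MGH-CP1. The 4 most abundant genes made up 48.0% to 50.1% of the sum in each library, so these totals mainly follow those genes. In bulk RNA, a change in how many cells express a gene and a change in RNA per cell cannot be told apart.

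**Figure D2:**
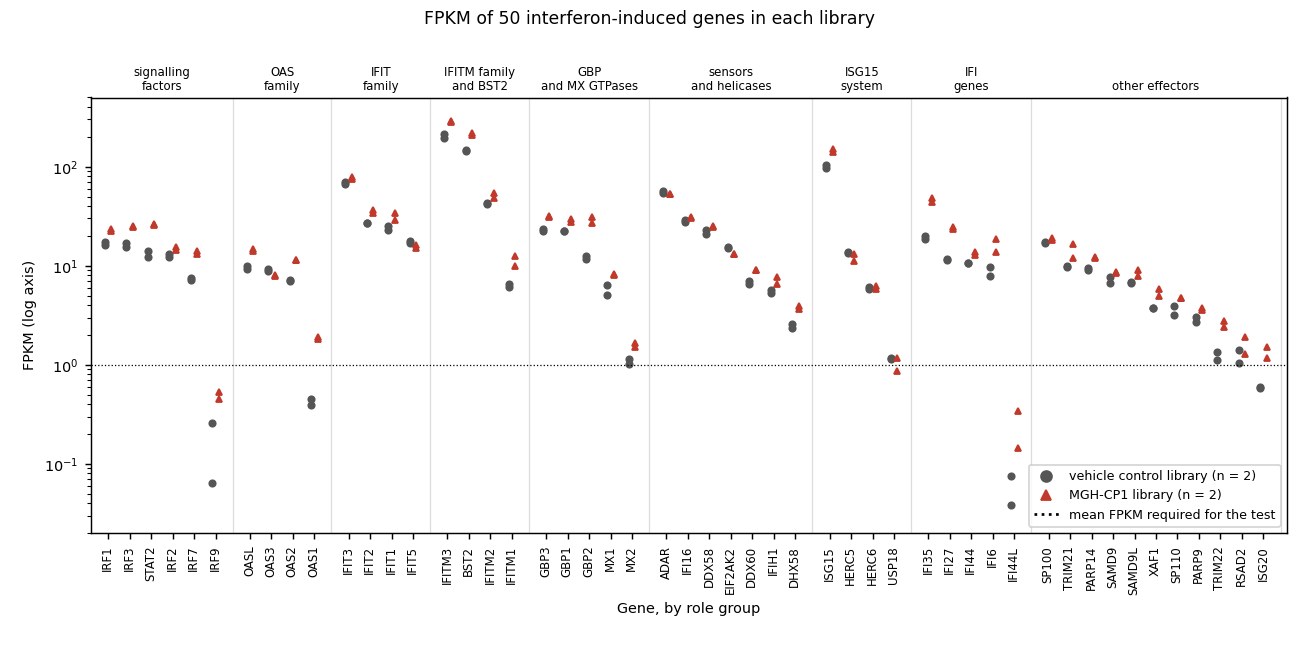
FPKM of the 50 genes in each library on a log axis, ordered within role groups by the vehicle level; grey circles, 2 vehicle control libraries; red triangles, 2 MGH-CP1 libraries; dotted line, the mean of 1 FPKM required for the test. IFITM3, BST2 and ISG15 are the most abundant with vehicle (204, 145 and 101 FPKM). The means of IRF9, IFI44L and ISG20 over the 4 libraries are under the line, although ISG20 lies above it in both MGH-CP1 libraries.

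Among the signalling factors, all 5 that could be tested rose, with a median log2 fold change of 0.60. STAT2, the partner of IRF9 in the type I interferon response, measured 12.2 and 14.1 FPKM with vehicle and 26.2 and 25.7 FPKM with MGH-CP1. The groups were well apart and the log2 fold change was 0.93 (SE 0.07, limma adjusted p = 5.43e-05). IRF7, the factor that amplifies type I interferon transcription, was at 7.47 and 7.19 FPKM with vehicle and at 13.1 and 14.1 FPKM with MGH-CP1. It rose by 0.81 on the log2 scale (SE 0.07, limma adjusted p = 7.46e-05). IRF3, which is activated by phosphorylation after nucleic acid sensing, was at 15.3 and 16.9 FPKM with vehicle and 25.2 and 24.6 FPKM with MGH-CP1, a log2 fold change of 0.60 (SE 0.06, limma adjusted p = 0.0002). Its listed span shares 310 bases with BCL2L12 on the other strand, and the use of strand in counting was not stated.

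IRF1 and IRF2 are known as an antagonistic pair. IRF1, an activator at ISRE-like sites, was at 16.4 and 17.2 FPKM with vehicle and 22.3 and 23.6 FPKM with MGH-CP1 (log2 fold change 0.43, SE 0.06). IRF2, which competes with IRF1, was at 13.0 and 12.4 FPKM with vehicle and 15.3 and 14.5 FPKM with MGH-CP1 (log2 fold change 0.21, SE 0.06, limma adjusted p = 0.0242). Both were higher in each treated library than in either vehicle library. The call for IRF2 was lost without vehicle control replicate 2 (log2 fold change 0.18) and without MGH-CP1 replicate 1 (0.17). IRF1, together with OAS1 and GBP2, is also in a list of commonly induced genes that the study chose partly on these libraries, so its rise is not independent evidence.

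Of the 3 OAS genes that reached 1 FPKM in both conditions, OAS2 and OASL rose and OAS3 did not, with a median of 0.54. OAS1, OAS2 and OAS3 make oligoadenylates that activate RNase L, whereas OASL lacks this activity and acts on RNA sensing. The first 3 genes lie side by side (chr12:113344582-113369990 for OAS1, chr12:113376157-113411054 for OAS3 and chr12:113416200-113449528 for OAS2, build hg19). OAS1 measured 0.395 and 0.453 FPKM with vehicle and 1.93 and 1.8 FPKM with MGH-CP1, a 4.40-fold ratio of the group means. Its level was low, at 20 and 23 fragments with vehicle and 69 and 63 fragments with MGH-CP1, and the log2 fold change of FPKM + 1, 1.01 (SE 0.12), understates the ratio. OAS1 reached the mean of 1 FPKM through its MGH-CP1 libraries alone, so that value is given as a description. With limma voom, whose minimum of 20 fragments is met by the vehicle libraries alone, its log2 fold change was 2.12 (adjusted p = 5.27e-06). OAS2 was at 7.19 and 6.96 FPKM with vehicle and 11.3 FPKM in both MGH-CP1 libraries (log2 fold change 0.61, SE 0.07, limma adjusted p = 0.000202). OASL was at 9.85 and 9.31 FPKM with vehicle and 14.7 and 14.2 FPKM with MGH-CP1 (log2 fold change 0.54, SE 0.06).

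OAS3, which lies between OAS1 and OAS2, did not share their rise. It measured 8.89 and 9.29 FPKM with vehicle and 7.85 and 8.15 FPKM with MGH-CP1, with both treated libraries below both vehicle libraries. The log2 fold change was -0.16 (SE 0.07) and missed the threshold in the main test (limma adjusted p = 0.0764). It passed with limma voom on the recovered fragments (log2 fold change -0.18, adjusted p = 0.0328) and after quantile normalization (-0.20). Within each library, the log2 ratio of OAS2 to OAS3 was -0.31 and -0.42 with vehicle and 0.53 and 0.48 with MGH-CP1, so the order of these neighbours changed. The log2 ratio of OAS1 to OAS3 was -4.49 and -4.36 with vehicle and -2.03 and -2.18 with MGH-CP1. With 2 libraries against 2, an exact two-sided permutation test of such a ratio gives p = 0.333, the smallest it can reach.

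IFIT genes, whose products bind viral RNA ends and block their translation, rose slightly in 3 of 4 cases, with a median of 0.28. IFIT3 was the most abundant at 70.5 and 66.5 FPKM with vehicle and 79.5 and 74.9 FPKM with MGH-CP1, and rose by 0.17 on the log2 scale (SE 0.05, limma adjusted p = 0.03). IFIT2 was at 26.9 and 26.8 FPKM with vehicle and 36.4 and 34.2 FPKM with MGH-CP1 (log2 fold change 0.38, SE 0.05). IFIT1, the best studied of the family, was at 25.0 and 22.9 FPKM with vehicle and 34.1 and 29.2 FPKM with MGH-CP1 (log2 fold change 0.39, SE 0.08). These 3 genes were higher in both treated libraries. IFIT5 was at 17.8 and 16.8 FPKM with vehicle and 15.3 and 16.1 FPKM with MGH-CP1, below vehicle in both libraries, without passing the threshold (log2 fold change -0.13, SE 0.06, limma adjusted p = 0.108). The log2 ratio of IFIT1 to IFIT5 was 0.49 and 0.44 with vehicle and 1.16 and 0.86 with MGH-CP1. IFIT1, IFIT2 and IFIT3 lie within the listed span of LIPA on the opposite strand, which had 2290 to 3400 fragments per library. The call for IFIT3 was lost without vehicle control replicate 2 and without MGH-CP1 replicate 1 (log2 fold change 0.13 in each).

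Membrane proteins that restrict virus entry (the IFITM family) and release (BST2, also called tetherin) included the most abundant transcripts of the whole set, and all 4 rose, with a median of 0.53. IFITM3 was at 196 and 212 FPKM with vehicle and 290 and 283 FPKM with MGH-CP1 (log2 fold change 0.49, SE 0.05, limma adjusted p = 0.000207). BST2 was at 143 and 146 FPKM with vehicle and 221 and 211 FPKM with MGH-CP1 (log2 fold change 0.58, SE 0.05, limma adjusted p = 6.42e-05). Both rest on 3706 to 4364 fragments per library, and the groups did not overlap. IFITM1 was at 6.11 and 6.60 FPKM with vehicle and 12.7 and 9.85 FPKM with MGH-CP1 (log2 fold change 0.73, SE 0.11), and IFITM2 rose by 0.26 (SE 0.06) from a mean of 42.5 to 51.3 FPKM. The call for IFITM2 was lost without MGH-CP1 replicate 1 (log2 fold change 0.18). IFITM1 lies wholly within the listed span of IFITM2 and the family members are close in sequence, so the division of fragments between them is uncertain.

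GBP and MX genes encode large GTPases that act on pathogen compartments and viral nucleocapsids. All 5 were higher in both treated libraries, 4 passed the threshold, and the median was 0.44. GBP2 had the largest log2 fold change of this group, at 12.6 and 11.7 FPKM with vehicle and 31.3 and 27.2 FPKM with MGH-CP1, a 2.41-fold ratio of the means and a log2 fold change of 1.20 (SE 0.08, limma adjusted p = 2.79e-05). It ranked 108 by rise among the 12080 genes tested. GBP1 was at 22.7 and 22.2 FPKM with vehicle and 27.5 and 29.4 FPKM with MGH-CP1 (log2 fold change 0.33, SE 0.06). GBP3 was at 23.7 and 22.5 FPKM with vehicle and 32.1 and 31.0 FPKM with MGH-CP1 (log2 fold change 0.44, SE 0.06). The log2 ratio of GBP2 to its neighbour GBP1 on chromosome 1 moved from -0.85 and -0.92 with vehicle to 0.19 and -0.11 with MGH-CP1, so GBP2 went from the lower of both to about the same level.

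MX1, which traps viral nucleocapsids, was at 5.06 and 6.43 FPKM with vehicle and 8.04 and 8.26 FPKM with MGH-CP1 (log2 fold change 0.45, SE 0.10, limma adjusted p = 0.00729). MX2, its nuclear-envelope relative, was at 1.15 and 1.01 FPKM with vehicle and 1.67 and 1.53 FPKM with MGH-CP1. MX2 did not pass in the main test (log2 fold change 0.32, SE 0.12, limma adjusted p = 0.0539) and passed with limma voom on 105 to 122 fragments per library (log2 fold change 0.56, adjusted p = 0.014).

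Sensors and helicases of the set gave a mixed picture, with 4 of 7 higher, 1 lower and a median of 0.19. DHX58, a regulator of the RNA sensors known as LGP2, was at 2.33 and 2.58 FPKM with vehicle and 3.63 and 3.93 FPKM with MGH-CP1 (log2 fold change 0.47, SE 0.10, limma adjusted p = 0.00447). DDX60, a helicase that aids these sensors, rose by 0.37 (SE 0.07). Of the sensors themselves, IFIH1 (MDA5) rose by 0.31 (SE 0.09) and DDX58 (RIG-I) by 0.19 (SE 0.06). Both calls depended on single libraries: that of IFIH1 was lost without vehicle control replicate 1 (0.27) or MGH-CP1 replicate 2 (0.20), and that of DDX58 without vehicle control replicate 2 (0.13), MGH-CP1 replicate 1 (0.17) or MGH-CP1 replicate 2 (0.21). The DNA sensor IFI16 was at 27.4 to 28.7 FPKM with vehicle and 30.0 to 31.0 FPKM with MGH-CP1 and did not pass (log2 fold change 0.12, limma adjusted p = 0.104).

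EIF2AK2, the kinase PKR that stops translation upon binding viral RNA, was the single gene of the set that fell. It was at 15.6 and 15.0 FPKM with vehicle and 13.1 and 13.2 FPKM with MGH-CP1 (log2 fold change -0.20, SE 0.06, limma adjusted p = 0.0208). Both treated libraries lay below both vehicle libraries. The call was lost without vehicle control replicate 1 (log2 fold change -0.18), MGH-CP1 replicate 1 (-0.20) or MGH-CP1 replicate 2 (-0.21). ADAR, which edits RNA and keeps it from the sensors, was at 56.7 and 53.9 FPKM with vehicle and 53.6 FPKM in both MGH-CP1 libraries (log2 fold change -0.04, SE 0.05, limma adjusted p = 0.479).

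In the ISG15 system, made up of this ubiquitin-like modifier and enzymes that attach or remove it, ISG15 was the single gene of 4 that rose. It was at 97.6 and 103 FPKM with vehicle and 152 and 142 FPKM with MGH-CP1 (log2 fold change 0.54, SE 0.05, limma adjusted p = 0.000149). HERC5, the ligase for ISG15, was at 13.7 and 13.4 FPKM with vehicle and 13.2 and 11.2 FPKM with MGH-CP1 (log2 fold change -0.14, SE 0.08, limma adjusted p = 0.18). Without MGH-CP1 replicate 1 it passed the threshold as lower (log2 fold change -0.25), and without MGH-CP1 replicate 2 the value was -0.03. Its relative HERC6 had a log2 fold change of 0.02 (SE 0.08) with overlapping groups. USP18, which removes ISG15 and restrains the type I interferon receptor, was at 1.14 and 1.16 FPKM with vehicle and 0.861 and 1.18 FPKM with MGH-CP1, and the groups overlapped (log2 fold change -0.10, SE 0.13, limma adjusted p = 0.57). The log2 ratio of ISG15 to HERC5 was 2.84 and 2.95 with vehicle and 3.53 and 3.67 with MGH-CP1.

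The IFI genes, named for their induction and not for a function shared by all of them, showed the highest median, 0.90, and all 4 that could be tested rose. IFI35, a leucine-zipper protein of the innate response, was at 20.2 and 18.5 FPKM with vehicle and 48.3 and 44.1 FPKM with MGH-CP1. This 2.39-fold ratio of the means, a log2 fold change of 1.22 (SE 0.07, limma adjusted p = 1.91e-05), ranked 100 by rise among all 12080 genes tested. IFI27, a small mitochondrial and membrane protein, was at 11.5 and 11.6 FPKM with vehicle and 23.4 and 24.6 FPKM with MGH-CP1 (log2 fold change 0.99, SE 0.06, limma adjusted p = 2.27e-05). IFI6, a related small hydrophobic protein, was at 7.89 and 9.74 FPKM with vehicle and 13.8 and 18.5 FPKM with MGH-CP1 (log2 fold change 0.80, SE 0.14). The IFI6 libraries were spread within each condition and the groups did not overlap. IFI44 rose by 0.29 (SE 0.06) from a mean of 10.7 to 13.3 FPKM.

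**Figure D3:**
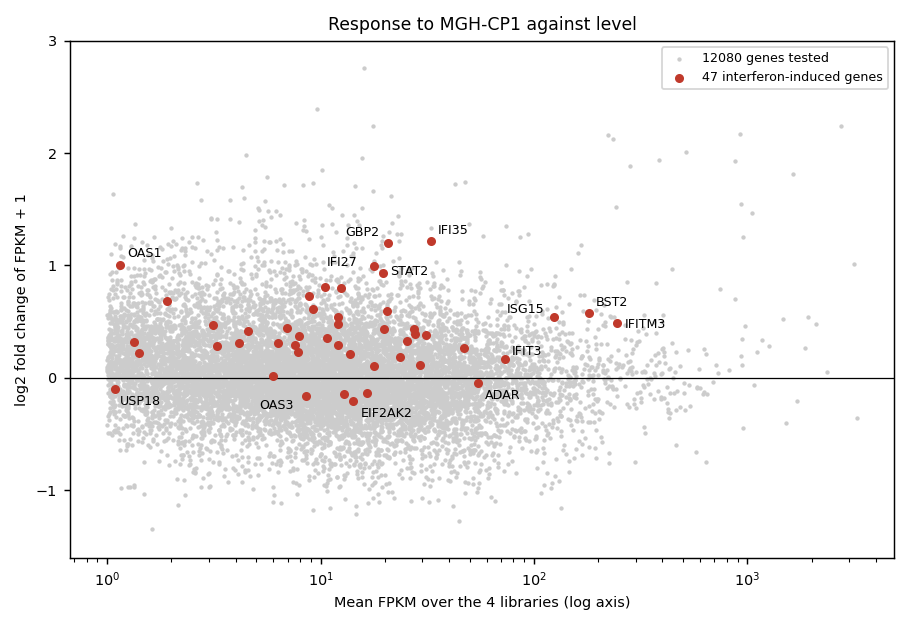
Log2 fold change of FPKM + 1 against the mean FPKM over the 4 libraries (log axis) for all 12080 genes tested (grey) and the 47 interferon-induced genes among them (red). Most red points lie above 0 with a median of 0.37, inside the range of the other genes at the same level.

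Of the other effectors, 8 of 10 tested rose, with a median of 0.30. TRIM22, a ubiquitin ligase with antiviral activity, was at 1.34 and 1.11 FPKM with vehicle and 2.75 and 2.42 FPKM with MGH-CP1 (log2 fold change 0.69, SE 0.12, limma adjusted p = 0.00181). Its listed span lies within that of TRIM5 on the opposite strand, which had 342 to 463 fragments per library. TRIM21, a cytosolic antibody receptor, was at 9.96 and 9.64 FPKM with vehicle and 16.6 and 11.9 FPKM with MGH-CP1 (log2 fold change 0.48, SE 0.13, limma adjusted p = 0.0156). The treated libraries of TRIM21 were far apart, and without MGH-CP1 replicate 1 the log2 fold change was 0.25 and the call was lost. XAF1, a regulator of apoptosis, was at 3.78 and 3.77 FPKM with vehicle and 4.98 and 5.76 FPKM with MGH-CP1 (log2 fold change 0.41, SE 0.09).

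Smaller rises were called for PARP14, SP110, SAMD9L, PARP9 and SAMD9, with log2 fold changes from 0.23 (SAMD9) to 0.36 (PARP14). PARP9 and PARP14 encode ADP-ribosyltransferases, and SAMD9 and SAMD9L translation-inhibiting proteins that restrict poxviruses. Of these 5 calls, that of PARP14 held without each library in turn. PARP9 was called in 0 of the 4 fits that leave out a library, with log2 fold changes of 0.22 to 0.34. SP110 was called in 1 of these fits (without vehicle control replicate 1) with values of 0.19 to 0.43, SAMD9 likewise in 1 with values of 0.15 to 0.31, and SAMD9L lost its call without vehicle control replicate 2 (0.27) or MGH-CP1 replicate 1 (0.20). RSAD2 (viperin), which makes a chain-terminating nucleotide, was at 1.40 and 1.05 FPKM with vehicle and 1.89 and 1.29 FPKM with MGH-CP1, with overlapping groups (log2 fold change 0.22, SE 0.15, limma adjusted p = 0.264). The nuclear body protein SP100 did not pass either (log2 fold change 0.11, SE 0.06, limma adjusted p = 0.165).

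Genes with few fragments need to be read from the counts. IFI44L had 5 and 10 fragments with vehicle and 32 and 13 with MGH-CP1, and IRF9, the DNA-binding partner of STAT2, had 12 and 3 with vehicle and 15 and 17 with MGH-CP1. Both were under 1 FPKM, did not enter the main test, and are the only genes of the set with a mean under 20 fragments over the 4 libraries. Relative to depth, the pooled MGH-CP1 rate was 4.30 times the vehicle rate for IFI44L (95% exact interval 2.35 to 8.30) and 3.06 times for IRF9 (1.61 to 6.07), intervals that cover counting error only. The 2 libraries of a condition differed by up to 4 times for IRF9 with vehicle, and the listed span of IRF9 lies wholly inside a gene entry on the same strand named RNF31 (5, 4, 11 and 10 fragments), so its count is uncertain. ISG20, an exonuclease that degrades viral RNA, had 84 and 85 fragments with vehicle and 152 and 115 with MGH-CP1 at a mean just under 1 FPKM. With limma voom on recovered fragments, where all 50 genes were tested, 40 were higher (against 25.0% of 15922 genes), 2 were lower (EIF2AK2 and OAS3, against 19.8%) and 8 had no call. The 3 genes outside the main test were among those called higher there, ISG20 with an adjusted p of 1.89e-05. IFI44L and IRF9 reached the minimum of 20 fragments over the 4 libraries only with their MGH-CP1 libraries. Their calls, which are part of the 40, are therefore given as a description.

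**Figure D4:**
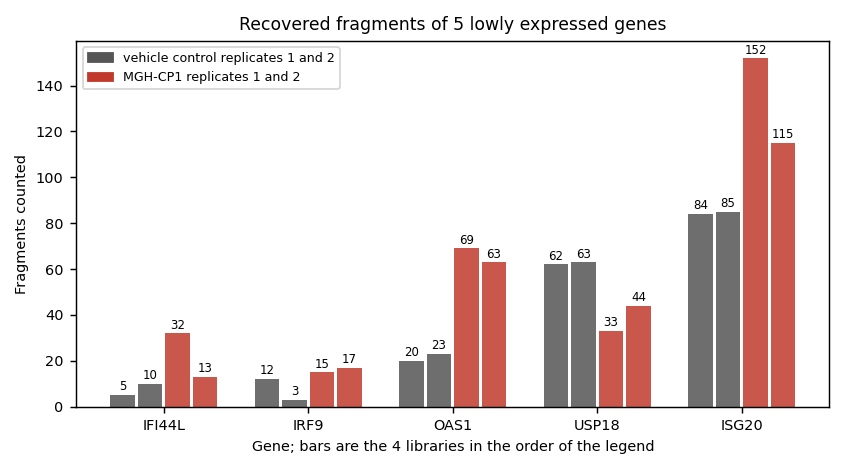
Fragments recovered in each of the 4 libraries for 5 lowly expressed genes, as counts not corrected for depth (grey, 2 vehicle control libraries; red, 2 MGH-CP1 libraries, which are the shallower ones). OAS1 went from 20 and 23 to 69 and 63 fragments and USP18 from 62 and 63 to 33 and 44, while IFI44L reached 32 in 1 library and 13 in the other.

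Other genes of the interferon pathway were spread over both directions. Of 38 further genes, 27 were tested, 10 rose (37.0%, against 27.1% of all genes tested), 6 fell (22.2%, against 23.8%) and 11 did not pass, with a median log2 fold change of 0.05. No interferon could be tested: 9 of 10 ligand genes, among them IFNB1 and IFNG, had 0 fragments in all 4 libraries, and IFNL1 had 2 fragments in MGH-CP1 replicate 1 and 0 elsewhere. A count of 0 allows up to 3 fragments per library, so a low level of these transcripts was not detectable at this depth. Of 6 receptor chains, 3 rose, namely IFNGR1 by 0.45 (SE 0.06), IFNGR2 by 0.25 (SE 0.05) and IL10RB by 0.41 on the log2 scale. The first pair forms the type II receptor and IL10RB is part of the type III receptor. The others, IFNAR1, IFNAR2 and IFNLR1, did not pass. IFNAR1, of the type I receptor, was at 18.0 and 17.6 FPKM with vehicle and 16.9 and 16.5 FPKM with MGH-CP1 (log2 fold change -0.09, limma adjusted p = 0.227).

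Among kinases and factors, TYK2, a kinase of the type I interferon receptor, was at 28.7 and 29.4 FPKM with vehicle and 39.1 and 39.6 FPKM with MGH-CP1, higher in both treated libraries (log2 fold change 0.43, SE 0.05, limma adjusted p = 0.000307). The kinases JAK1 and JAK2 did not pass the threshold (log2 fold changes -0.11 and 0.03), nor did STAT3 (0.05). TYK2 and the receptors were picked out after their values were seen.

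By the size of the change, 4 of these pathway genes were called and changed by 0.5 or more on the log2 scale. TMEM173 (STING), the adaptor of cytosolic DNA sensing, was at 7.71 and 7.30 FPKM with vehicle and 19.9 and 18.3 FPKM with MGH-CP1 (log2 fold change 1.24, SE 0.07, limma adjusted p = 1.91e-05). IKBKE, a kinase that phosphorylates IRF3 and IRF7, was at 8.77 and 9.33 FPKM with vehicle and 16.7 and 14.6 FPKM with MGH-CP1 (log2 fold change 0.72, SE 0.08). PTPN6, a phosphatase that dampens cytokine receptors, was at 1.37 and 1.71 FPKM with vehicle and 3.13 and 3.11 FPKM with MGH-CP1 (log2 fold change 0.70, SE 0.11). PTPN2, a phosphatase that acts on JAK1, was at 14.5 and 13.7 FPKM with vehicle and 10.2 and 9.05 FPKM with MGH-CP1, a log2 fold change of -0.51 (SE 0.07, limma adjusted p = 0.000906). MB21D1 (cGAS), the DNA sensor upstream of TMEM173 and named here after its values were seen, was at 26.6 and 24.3 FPKM with vehicle and 17.6 and 19.2 FPKM with MGH-CP1 (log2 fold change -0.45, SE 0.07), opposite to TMEM173.

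Motif matches were counted over the whole 300-base promoter windows. The ISRE core was found in at least 1 window of 25 of the 38 genes with an entry (65.8%), against 4.38% of 27305 genes in the RefSeq table. The GAS letters TTCNNNGAA, which read the same on both strands, were found for 12 genes (31.6%, against 9.38%), and the TEAD motif GGAATG or its reverse complement for 8 (21.1%, against 16.7%). GAS and ISRE matches can overlap, as in BST2, where the overlapping pair of ISRE cores printed in capitals begins within a GAS match.

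Responses were set beside these matches. The 23 tested genes with the core had a median log2 fold change of 0.36, with 18 called higher, and the 11 without it, leaving out OAS1 in these counts, had a median of 0.29, with 7 called higher. All 10 such genes with GAS letters were called higher, with a median of 0.44, and of 24 tested genes without them 15 were called higher, with a median of 0.26. For the TEAD motif the medians were 0.36 with it (7 genes) and 0.31 without it (27 genes). These are descriptions of small groups with no test. Of all 12080 genes tested, 27.1% were called higher, and their calls were not split by motif. EIF2AK2, OAS3, IFIT5 and HERC5, which did not rise, hold the ISRE core, while STAT2, OAS1, IFI35 and IRF1, which rose, do not hold these exact letters in the window. ADAR, HERC6, IFI16 and SP100, which were not called higher, do not hold them either. The part of the core in the response was not tested.

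**Figure D5:**
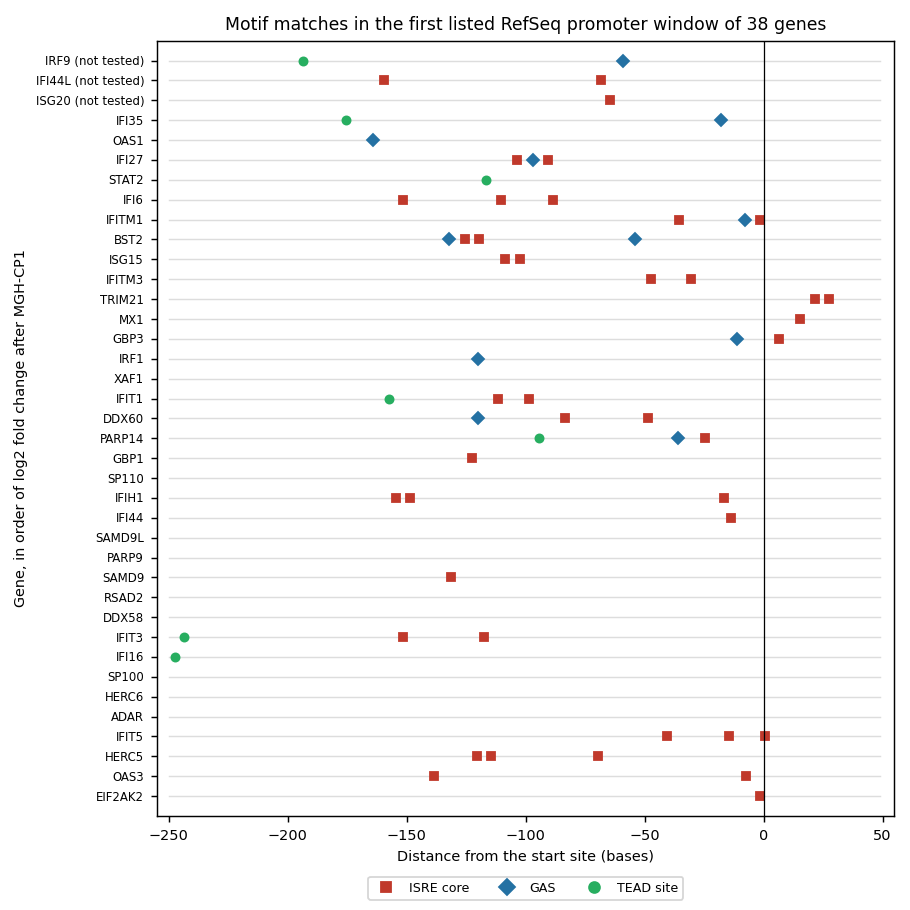
Positions of ISRE core, GAS and TEAD motif matches in the first RefSeq promoter window listed for each of 38 genes, in bases from the start site, with genes ordered by log2 fold change and untested genes at the top. ISRE matches (red squares) occur from the top to the bottom of the order, and GAS matches (blue diamonds) lie among genes that rose or were not tested.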

How the data were processed

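RNA of MDA-MB-231 cells was selected with poly-T beads and sequenced by Novogene as paired-end reads. Per the labels, the submitters' processing notes name CASAVA 1.8, STAR and the build hg19; the counting tool, its use of strand and the annotation are not given in the sources used here. The study's methods give the dose in mM and the sample labels in µM. The authors deposited FPKM for 48162 genes, computed from gene length and library total, with no further scaling found between libraries. In each library FPKM times length came in whole steps (100% of values within 0.01), which returned the fragment counts.

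From FPKM, log2(FPKM + 1) of the 12080 genes with a mean of at least 1 was compared between the conditions with limma 3.58.1 in R 4.3.3 (two-sided, eBayes with a variance trend, Benjamini-Hochberg adjustment, prior degrees of freedom 5.97). A log2 fold change on this scale understates the change of low genes. Alternatives were a pseudocount of 0.1, no filter, a minimum of 5 FPKM, a replicate block, scaling by median ratios, quantile normalization, no shared variance, limma voom on genes with at least 20 recovered fragments, and leaving out each library. Scripts were tested on simulated data.

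The members and the lists of other genes were chosen with earlier results of these data known. Values per library were printed for members of the signalling, OAS, IFIT and GBP groups, for others that were called and changed by 0.4 or more on the log2 scale or had 50 FPKM or more, and for some added after their values were seen (EIF2AK2, RSAD2, USP18, HERC5, IFI16). Motifs were searched in RefSeq promoter windows of GRCh38.p14. These were not mixed with the hg19 coordinates of the deposited table. Of the members, 12 had no promoter entry. The values of a further pathway gene are not reported here.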

Additional observations from a re-analysis of the deposited data

How the results depend on the processing

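With 2 libraries per condition, the counts depend on how variance is shared. The count of members called higher, 36, was 36 with a pseudocount of 0.1, with median-ratio scaling and with the replicate block. Of all 12080 genes, 3155 to 3466 were called higher in these 3 settings. The members' count was 32 after quantile normalization (2918 of 12080 genes) and 30 of 38 at a minimum of 5 FPKM (2434 of 8439 genes). It was 40 with voom (3983 of 15922 genes) and 22 without a filter (2280 of 24878 genes). All 36 had a log2 fold change above 0 without each library in turn, which was not counted over all genes. Calls that were lost in such fits are given with their genes. With limma's per-gene variance alone the count of members was 0, against 9 of all 12080 genes, and the smallest adjusted p of a member was 0.0555. The count called lower was 1, against 2869 of 12080 genes. It was 2 after quantile normalization (3221 of 12080 genes) and with voom (3160 of 15922 genes), where OAS3 joined EIF2AK2. It was 0 with no shared variance, against 4 of all 12080 genes. Without a library, the log2 fold change of EIF2AK2 was -0.23 to -0.18. The median of 0.37 moved to 0.40 with a pseudocount of 0.1, 0.34 after quantile normalization, 0.44 with voom, and 0.35 to 0.39 without a library. Of the 27 other pathway genes, 8 higher and 3 lower were called without a filter, against 2280 and 1844 of all 24878 genes. With no shared variance 0 and 0 were called, against 9 and 4 of all 12080 genes. The sign turned for uncalled genes: the log2 fold change of HERC6 was -0.053 after quantile normalization and -0.025 to 0.059 without a library, and that of USP18 was -0.21 to 0.016 without a library. The cause was not tested.

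Same-numbered libraries share a number in their titles, which do not say whether they were prepared together. The deviations of both libraries numbered 1 from their group means correlated at r = 0.078 over 12080 genes, which cannot settle this. With the replicate block, 36 members were higher and 1 lower, and over all genes 3466 higher and 3052 lower, against 3273 and 2869.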
